A study of Mus musculus with 28 samples.

Results

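The 4 Hox gene clusters were examined as 4 windows of the mouse genome, each set by its position in the build mm9. The windows are chr6:52080001-52240000 (HoxA, 160 kb), chr11:95930001-96250000 (HoxB, 320 kb), chr15:102740001-102880000 (HoxC, 140 kb) and chr2:74480001-74620000 (HoxD, 140 kb). Every peak of 5-hydroxymethylcytosine (5hmC) or 5-methylcytosine (5mC) that overlapped a window by at least 1 bp was taken, whatever its score. This gave 491 of 1489550 peaks, made up of 171 of 815277 5hmC peaks and 320 of 674273 5mC peaks. HoxA held 87 5hmC and 125 5mC peaks, HoxB 78 and 168, HoxC 2 and 13, and HoxD 4 and 14.

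All libraries came from LK bone marrow cells of C57BL/6 mice aged 6 to 10 weeks. The genotypes were a double knockout of Tet1 and Tet2 (DKO), a Tet2 knockout (Tet2KO) and wild type (WT). The 5hmC assay, a chemical labelling and capture (hMe-Seal), had 2 libraries of each genotype, and the 5mC assay, immunoprecipitation of methylated DNA (MeDIP-seq), had 2 DKO, 1 Tet2KO and 2 WT libraries. The lists hold DNA marks only, so the identity of the LK cells and the loss of Tet1 and Tet2 could not be checked in them, and the labels do not say whether libraries of a genotype came from separate animals.

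Hox genes encode homeodomain transcription factors that set position along the body axis, and they lie side by side in each cluster. In blood formation, Hoxa7, Hoxa9, Hoxa10, Hoxb3, Hoxb4 and Hoxb5 are known from stem and progenitor cells. Hoxa9 is a driver of leukaemia when it is overexpressed, and Hoxb4 expands stem cells when it is forced on. Hoxc8 and Hoxd9 are known mainly from patterning of the trunk and limbs. Tet enzymes oxidise 5mC to 5hmC, and Hox clusters are rich in CpG, the dinucleotide at which both marks mostly occur.

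In RefSeq (GRCm38.p6) the clusters held 11, 10, 9 and 9 Hox genes, 39 in all. Positions of genes in mm9 were not used here, so no peak was assigned to a gene. RefSeq promoters, 250 bases before to 50 after the start, were matched for 22 of the 39 genes. They had a median of 14.5 CpG per 300 bases, against 7 over all 32851 promoters. Most came from HoxA and HoxD, with 10 promoters each and medians of 17.5 and 20 CpG. HoxB had 3 promoters, with a median of 13 CpG, and HoxC only 1, with 9. One promoter of each cluster is shown because both marks occur mostly at CpG. Capitals mark every CG, which reads the same on both strands.
Hoxa9 (chromosome 6, minus strand, 4 CpG): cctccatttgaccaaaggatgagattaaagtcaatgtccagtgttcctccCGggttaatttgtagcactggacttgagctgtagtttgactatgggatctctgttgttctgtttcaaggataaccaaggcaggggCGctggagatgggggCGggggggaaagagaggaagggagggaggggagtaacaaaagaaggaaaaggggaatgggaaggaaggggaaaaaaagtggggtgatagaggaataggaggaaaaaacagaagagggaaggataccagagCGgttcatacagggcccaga
Hoxb4 (chromosome 11, plus strand, 14 CpG): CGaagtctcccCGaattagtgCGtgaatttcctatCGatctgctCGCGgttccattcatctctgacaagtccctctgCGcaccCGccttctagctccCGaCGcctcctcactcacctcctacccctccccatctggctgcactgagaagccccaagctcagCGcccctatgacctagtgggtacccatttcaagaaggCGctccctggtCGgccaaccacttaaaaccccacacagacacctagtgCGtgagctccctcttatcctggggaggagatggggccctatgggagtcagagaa
Hoxc4 (chromosome 15, plus strand, 9 CpG): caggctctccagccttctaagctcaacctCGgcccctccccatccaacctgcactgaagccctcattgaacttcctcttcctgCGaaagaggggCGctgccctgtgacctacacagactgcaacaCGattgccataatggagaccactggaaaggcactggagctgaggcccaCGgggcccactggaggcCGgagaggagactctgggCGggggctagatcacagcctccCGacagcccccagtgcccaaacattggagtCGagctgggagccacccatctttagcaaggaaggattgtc
Hoxd9 (chromosome 2, plus strand, 20 CpG): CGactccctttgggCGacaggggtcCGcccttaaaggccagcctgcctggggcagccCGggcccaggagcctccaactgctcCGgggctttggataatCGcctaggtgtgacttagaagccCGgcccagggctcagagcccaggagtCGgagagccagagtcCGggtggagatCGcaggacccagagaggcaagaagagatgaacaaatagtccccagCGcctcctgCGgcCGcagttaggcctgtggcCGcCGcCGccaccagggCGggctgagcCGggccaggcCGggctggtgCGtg
The Hoxa9 window is poor in CpG for a Hox promoter, with 68.6% of all promoters holding as many or more, against 36.3% for Hoxb4, 45.8% for Hoxc4 and 26.5% for Hoxd9. Hoxd4 and a Hoxd11 promoter, not shown, also had 4 CpG. Hoxa7 had 9 CpG, and the 2 listed Hoxa10 promoters had 21 and 12.

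The lists differed in size. They held 128471 to 143960 5hmC peaks, covering 3.73% to 4.23% of the genome, and 120243 to 147934 5mC peaks, covering 1.65% to 1.71%. The median width was 598 to 728 bp for 5hmC and 275 to 331 bp for 5mC. Read depth is unknown, so every value below is a share of sequence under called peaks and not a level of modification.

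The windows differed in the share covered by 5hmC peaks, in the order HoxA, HoxB, then HoxC and HoxD. In HoxA, 5hmC peaks covered 7.24% and 7.07% of the window in DKO, 5.88% and 7.34% in Tet2KO, and 5.402% and 6.77% in WT. In HoxB, 5hmC peaks covered 2.50% and 2.22% in DKO, 2.85% and 2.47% in Tet2KO, and 2.11% and 2.48% in WT. The lowest HoxA library therefore lay above the highest HoxB library. HoxA had 12 to 17 5hmC peaks per library and HoxB 10 to 15, although the HoxB window is the longer. HoxC had a single 5hmC peak in 1 Tet2KO and in 1 WT library and none in the other 4. HoxD had 2 in 1 DKO library, 1 in 1 Tet2KO library and 1 in 1 WT library. The 6 peaks of HoxC and HoxD had scores between 52.9 and 86.4, which 55.9% to 94.7% of the peaks of their lists reached.

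Paired within libraries, 5hmC coverage of HoxA exceeded that of HoxB by 4.18 percentage points, that of HoxC by 6.50 and that of HoxD by 6.34, in 6 of 6 libraries each. HoxB exceeded HoxC by 2.32 and HoxD by 2.16 percentage points, also in 6 of 6. Each of these 5 differences had adjusted p = 0.0375 (exact two-sided sign-flip permutation test, n = 6, adjusted over 6 pairs). HoxC minus HoxD was -0.16 percentage points (adjusted p = 0.375, same exact test), a difference not resolved at this number of libraries. With any 1 library left out, 5 libraries cannot reach an adjusted p below 0.05, and the 5 differences kept their sign. With a minimum score of 100, HoxA exceeded HoxB by 2.45 percentage points and HoxC and HoxD by 3.27, and HoxB exceeded both by 0.824, still with adjusted p = 0.0375 by the exact test.

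**Figure D1:**
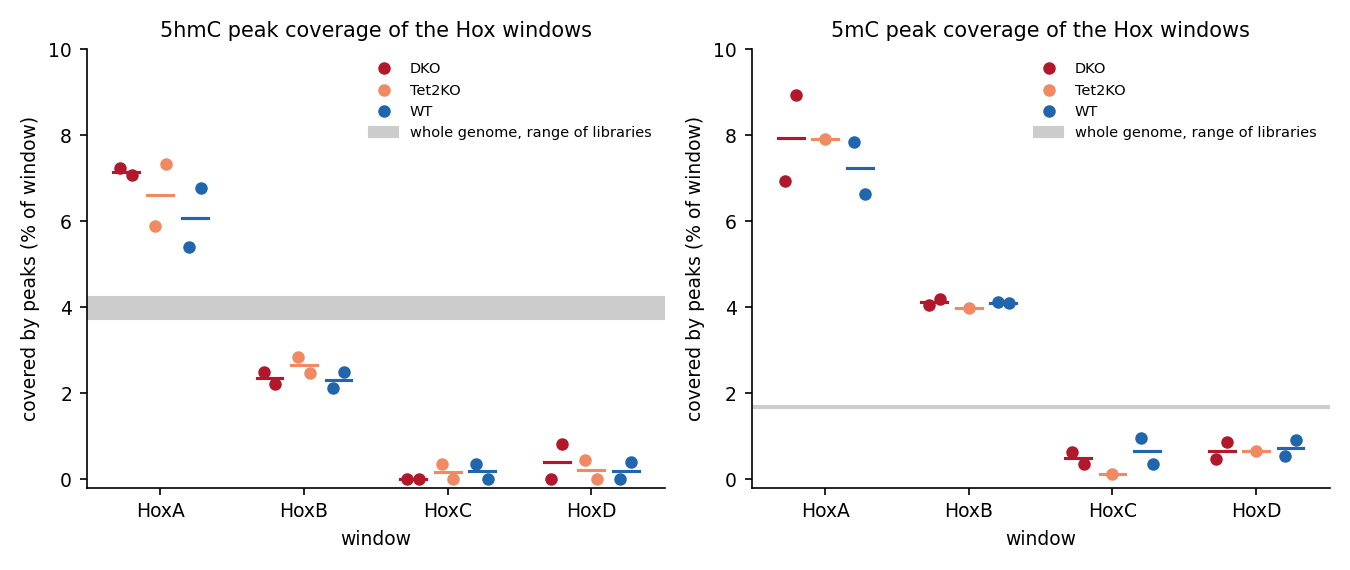
Share of each Hox window covered by 5hmC peaks (left) and 5mC peaks (right), in percent, with 1 point per library, coloured by genotype, and a line at each genotype's mean. The grey band is the range of genome-wide coverage over the libraries: for 5hmC only the HoxA points lie above it, and for 5mC the HoxA and HoxB points do.

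The pattern of 5mC over the clusters was related but not the same. In HoxA, 5mC peaks covered 6.94% and 8.93% in DKO, 7.91% in Tet2KO, and 7.83% and 6.65% in WT. In HoxB they covered 4.05% and 4.18% in DKO, 3.98% in Tet2KO, and 4.12% and 4.10% in WT. DKO and WT overlapped there, and the single Tet2KO library was the lowest of the 5. In HoxC they covered 0.63% and 0.36% in DKO, 0.13% in Tet2KO, and 0.95% and 0.36% in WT. In HoxD they covered 0.47% and 0.87% in DKO, 0.66% in Tet2KO, and 0.55% and 0.91% in WT. The HoxA and HoxB values did not overlap with each other or with those of HoxC and HoxD, which overlapped with one another.

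Set against the mean coverage of the genome, HoxB was the cluster in which the marks lay on opposite sides. 5hmC covered 0.5 to 0.742 times the genome's share in HoxB, while 5mC covered 2.33 to 2.54 times its genome share there. In HoxA, 5hmC covered 1.28 to 1.97 times and 5mC 3.98 to 5.42 times the genome's share. On the log2 scale, with 0.1 percentage points added, the window-to-genome ratio in HoxA was 0.70 ± 0.21 for 5hmC (SD, n = 6) and 2.11 ± 0.18 for 5mC (SD, n = 5). In HoxB it was -0.70 ± 0.19 for 5hmC (SD, n = 6) and 1.23 ± 0.04 for 5mC (SD, n = 5). The ratios of HoxC and HoxD were below 0 for both marks, -4.63 ± 1.14 and -4.04 ± 1.49 for 5hmC (SD, n = 6), and -1.78 ± 0.82 and -1.21 ± 0.37 for 5mC (SD, n = 5). Where a library has no peak, the size of the ratio is set by the amount added and bears no reading. Every library had the sign of its window's mean, but all 8 tests against the genome gave adjusted p = 0.0625 (exact two-sided sign-flip permutation test). The smallest unadjusted p was 0.0312 with the 6 5hmC libraries and 0.0625 with the 5 5mC libraries, each reached in all 4 windows, and adjusting over both marks together gave 0.0625 for all.

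The ratio was lower for 5hmC than for 5mC in HoxA and HoxB. The difference was -1.41 in HoxA and -1.93 in HoxB on the log2 scale, both with adjusted p = 0.00433 (exact two-sided permutation test of 6 against 5 libraries, 462 arrangements). In HoxC and HoxD, 4 and 3 of the 6 5hmC libraries have no peak, and the size of the difference is set by the amount added: it was -2.85 and -2.83 with 0.1 percentage points, and -4.88 and -4.46 with 0.01, so no test is read from it. The 2 marks were measured by different assays with peaks of different width, and the part of the assay in these differences cannot be told apart from that of the mark.

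The genome's mean is pulled up by regions rich in peaks, so the windows were also set among tiles of their own length. In 5hmC coverage, 20.9% of 16499 tiles reached the HoxA mean of 6.62%. Of the tiles as long as HoxB, 36.7% reached its mean of 2.44%, and their median was 0.588%, so HoxB was above the typical tile in 5hmC as well as in 5mC. In 5mC coverage, 2.96% of tiles reached the HoxA mean of 7.65% and 12.4% reached the HoxB mean of 4.09%. HoxC and HoxD lay near the middle of the tiles, of which 53.3% and 49.7% reached their 5hmC means, and 55.6% and 50.1% their 5mC means. HoxC and HoxD, although under the genome's mean, were therefore near its typical tile. Flanks gave another view of HoxB: as much sequence on its sides was covered by 5hmC at 7.58% to 9.58%, above the window itself in 6 of 6 libraries. Set against the same flanks, the log2 ratio of 5mC in HoxB was 0.09, against 1.23 with the genome as comparison (adjusted p = 0.143 with flanks, exact sign-flip permutation), and the Tet2KO library lay below its flanks. The flanks of HoxA were covered by 5hmC at 2.15% to 3.48%, below the window in 6 of 6. HoxC and HoxD were like HoxB in this: their flanks were above the window in 5hmC in 6 of 6 libraries each. The flanks of HoxC were covered at 1.23% to 2.57%, and those of HoxD at 0.67% to 1.69%. In 1 DKO library the margin of HoxD was small, 0.81% against 0.85%.

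Within HoxA both marks were packed into the lower-coordinate part of the window. The shortest run of 10 kb bins that held 80% of the mean 5hmC coverage was 70 kb long, chr6:52100001-52170000, and held 84.2% to 90.3% of the window's 5hmC in each library. For 5mC it was 50 kb long, chr6:52110001-52160000, and held 92.9% to 96.5%. The bin richest in 5hmC, chr6:52140001-52150000, was covered at 19.6% on average (17.8% to 22.8%). The bin richest in 5mC lay next to it, chr6:52150001-52160000, at 41.5% (36.2% to 47%). The bin after that, chr6:52160001-52170000, was covered by 5hmC at 10.2% to 22.7% and held no 5mC peak in any library. Outside these runs, the first bin of the window, chr6:52080001-52090000, was covered by 5hmC at 7.33% on average, in 5 of 6 libraries. The last one, chr6:52230001-52240000, was covered by 5mC at 5.92%, in all 5 libraries. The longest stretch of the window with no 5hmC peak in any library was chr6:52196015-52240000, 44.0 kb.

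Within HoxB the 2 marks spread differently. The run that held 80% of the mean 5hmC coverage was 60 kb long, chr11:96150001-96210000, or 18.8% of the window. It held 72.9% to 92.9% of the window's 5hmC in each library. Over this run 5hmC covered 8.93% to 12.0%, against 10.65% to 15.15% over the 5hmC run of HoxA. These ranges overlapped, unlike those of the whole windows. The run for 5mC was 210 kb long, chr11:96000001-96210000, or 65.6% of the window. 5hmC had its highest bin at chr11:96170001-96180000, covered at 21.8% on average (16.4% to 30.9%), and 5mC at chr11:96200001-96210000, covered at 27.4% (25.2% to 29.2%). The longest 5hmC-free stretch of HoxB was chr11:96028396-96121495, 93.1 kb, of which the upper part carried 5mC peaks. Of the 32 bins of HoxB, 20 had no 5hmC peak in any library and 10 had no 5mC peak. In HoxA these counts were 6 and 9 of 16. Over the genome of 2641.23 Mb, 85776 bins had a 5hmC peak in at least 1 library and 109149 had a 5mC peak. Most 10 kb bins of the genome were therefore empty for each mark.

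HoxC and HoxD held few peaks, and most bins of the genome are likewise empty for each mark. In HoxC, 12 of 14 bins had no 5hmC peak and 10 of 14 no 5mC peak, and chr15:102776132-102880000, 103.9 kb, had no 5hmC peak in any library. Its highest bin for 5mC was chr15:102840001-102850000 at 5.52% (1.86% to 9.75%), and for 5hmC chr15:102760001-102770000 at 0.853%, from 1 WT library. In HoxD, 10 of 14 bins were empty for each mark, with chr2:74536692-74584454, 47.8 kb, as the longest 5hmC-free stretch. Its highest bin for 5mC was chr2:74560001-74570000 at 7.29% (6.14% to 9.05%), and for 5hmC chr2:74530001-74540000 at 1.07%, from 1 DKO library. The 5hmC-free stretch of HoxC reached 201.9 kb at its full length beyond the window. Of all 5hmC-free stretches 0.605% were as long, and together they made up 45.4% of the genome. Stretches at least as long as those of HoxA, HoxB and HoxD made up 58.2%, 51.7% and 57.95% of it.

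**Figure D2:**
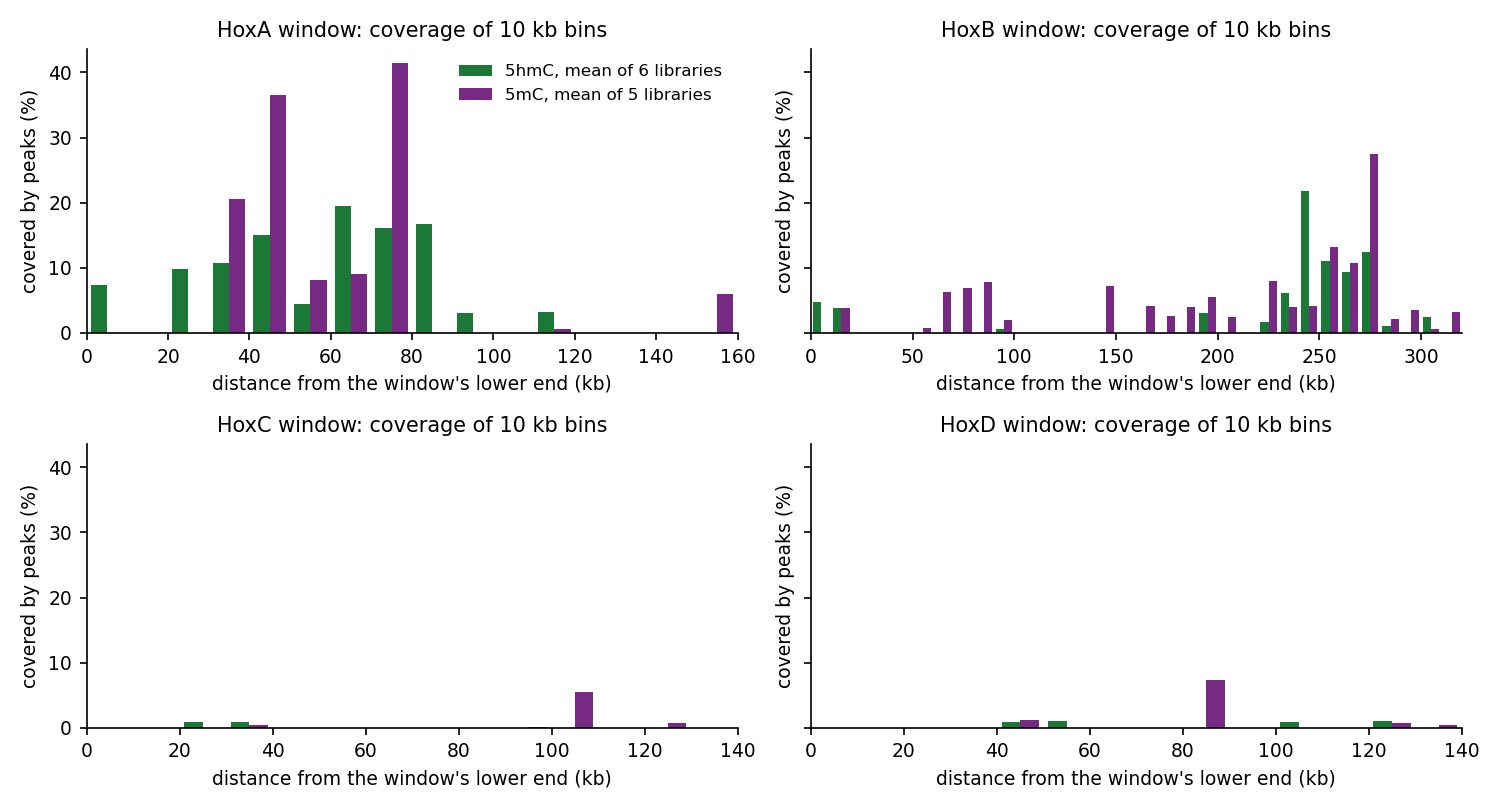
Mean coverage by 5hmC (green, 6 libraries) and 5mC (purple, 5 libraries) of 10 kb bins, in percent, against the distance in kb from the lower-coordinate end of each window. Both marks crowd between 20 and 90 kb in HoxA, 5mC extends over most of HoxB while 5hmC is concentrated between 220 and 280 kb, and HoxC and HoxD are nearly bare.

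Peaks of the same assay that overlapped were merged into regions, giving 61 5hmC and 90 5mC regions in the windows. Of the 5hmC regions, 10 of 61 (16.4%) had a peak in all 6 libraries, against 29.9% of 206417 regions. For 5mC it was 39 of 90 (43.3%) in all 5 libraries, against 32.3% of 218122 regions. These shares are descriptions without a test. The constant 5hmC regions were 6 in HoxA and 4 in HoxB, and the constant 5mC regions were 17 in HoxA, 21 in HoxB, 0 in HoxC and 1 in HoxD.

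The widest constant 5hmC region of HoxA was chr6:52109039-52110965 (1927 bp). Its best score was 249.7 and 204.5 in DKO, 219.5 and 283.7 in Tet2KO, and 134.1 and 140.7 in WT. Both WT libraries were below the 4 knockout libraries, but depth differs in an unknown way and scores are comparable only by rank within a list. By rank, 13.0% and 17.6% of peaks in the DKO lists scored as high or higher, 14.9% and 9.72% in the Tet2KO lists, and 30.7% and 28.0% in the WT lists. The region with the best 5hmC rank in HoxA, chr6:52139446-52141323 (1878 bp), showed no such separation: its scores were 306.2 and 401.6 in DKO, 343 and 374.5 in Tet2KO, and 390.2 and 386.3 in WT. That region was picked out after its values were seen. The widest constant 5hmC region of HoxB was chr11:96178748-96179738 (991 bp), with scores of 280.3 and 304.7 in DKO, 411.5 and 134.3 in Tet2KO, and 265.9 and 267.3 in WT. The Tet2KO libraries were the highest and the lowest of the 6.

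The 5mC regions with the highest scores stood near the top of their own lists. The widest constant one of HoxA, chr6:52152466-52155022 (2557 bp), had the score 3100 in all 5 libraries, which 0.105% to 0.142% of the peaks of a list reached. The region with the next median score, chr6:52122105-52123057, named after its values were seen, had 3210 and 3073 in DKO, 2917 in Tet2KO, and 2866 and 3100 in WT. Its score was above 3100 in 1 DKO library and equal to 3100 in 1 WT library. A score of exactly 3100 in all 5 libraries may be a set value of a scale that is not known. No order or equality of signal between regions or genotypes is therefore read from it. In HoxB the widest, chr11:96206382-96207962 (1581 bp), had 2492 and 2201 in DKO, 1986 in Tet2KO, and 2026 and 2237 in WT. The region of HoxB with the highest scores, chr11:96193838-96194867, also named after its values were seen, had 3058 and 2601 in DKO, 2042 in Tet2KO, and 2371 and 2688 in WT. The single constant region of HoxD, chr2:74561341-74561755 (415 bp), had 284.9 and 202.4 in DKO, 417.6 in Tet2KO, and 160.7 and 434.4 in WT. HoxC had no 5mC region in all libraries. Its most frequent one, chr15:102849167-102849559, also chosen after the values were seen, was called in 1 DKO, the Tet2KO and both WT libraries.

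Regions of the 2 marks overlapped in part. Of the 61 5hmC regions, 25 (41.0%, 95% exact Clopper-Pearson interval 28.6% to 54.3%, counting error only) overlapped a 5mC region, against 29.3% over the genome. Of the 10 constant 5hmC regions, 5 overlapped a constant 5mC region, 2 in HoxA and 3 in HoxB, against 19.9% over the genome. Counted from 5mC, the shares were below those of the genome. Of the 90 5mC regions, 26 (28.9%) overlapped a 5hmC region, against 32.4%. Of the 39 constant 5mC regions, 6 (15.4%) overlapped a constant 5hmC region, against 19.7%. The 2 directions thus differed, and neither was tested. The 5mC regions with the highest scores in HoxA were under 5hmC in some libraries only: chr6:52152466-52155022 overlapped a 5hmC peak in 2 of 6 libraries and chr6:52122105-52123057 in 3 of 6. The widest 5hmC region, chr6:52109039-52110965, overlapped no 5mC peak and lay 3995 bp from the nearest constant 5mC region.

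**Figure D3:**
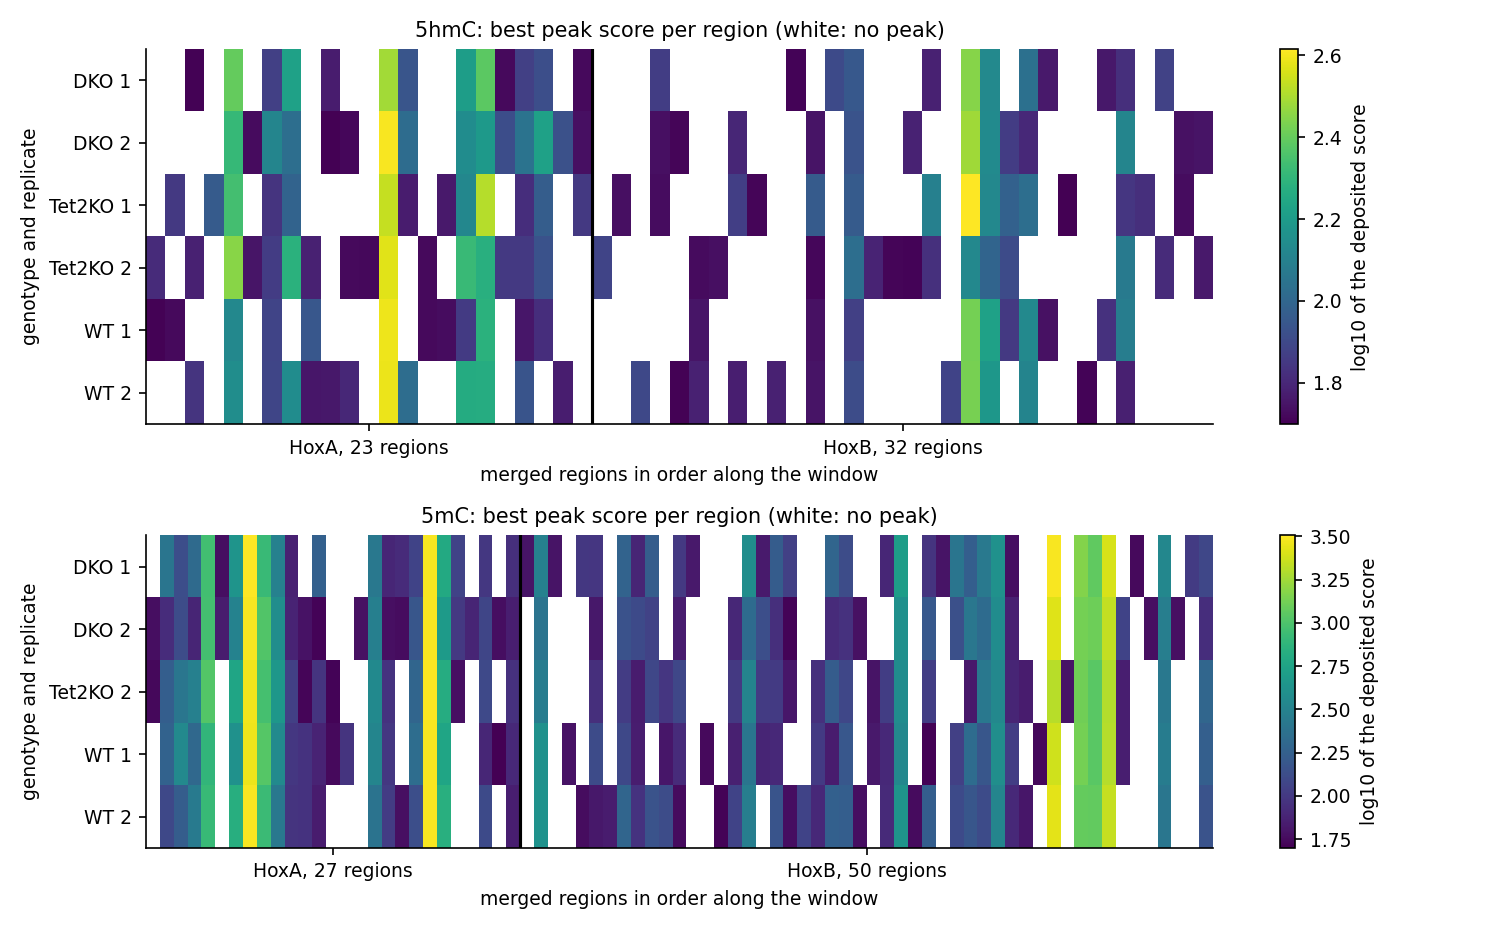
Best deposited score, as log10, of each merged region (columns, in order along the window) in each library (rows, by genotype and replicate), for 5hmC (top) and 5mC (bottom) in HoxA and HoxB, with white for no peak. Columns filled in every row are the constant regions: 6 and 4 for 5hmC, and 17 and 21 for 5mC.

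The genotypes address whether loss of Tet2, or of Tet1 and Tet2, went with a difference in 5hmC or 5mC in the clusters. No window showed a difference that passed the test. In HoxA the mean coverage was 7.15% in DKO and 6.61% in Tet2KO, against 6.09% in WT, so the WT mean was the lowest. Both DKO libraries lay above both WT libraries, by 1.07 percentage points on average, while Tet2KO overlapped WT. This separation had an exact permutation p = 0.333, the smallest that 2 against 2 libraries can give. In HoxB, HoxC and HoxD, DKO and WT overlapped in 5hmC. How often other parts of the genome separate in this way was not determined. The 4 knockout libraries exceeded WT by 0.80 percentage points (exact permutation p = 0.333, adjusted p = 0.8 over 4 windows). With the same number of top-scored peaks taken from each list, this difference was -0.00891 percentage points, so its sign is not settled. The DKO and WT coverage of HoxA by 5mC, 7.93% against 7.24%, differed by 0.69 percentage points, with overlapping libraries.

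The other windows gave knockout minus WT differences in 5hmC of 0.21 percentage points in HoxB, -0.09 in HoxC and 0.11 in HoxD (adjusted p = 0.8 in each by the same exact permutation test). HoxB averaged 2.36% in DKO and 2.66% in Tet2KO, against 2.30% in WT, and the libraries overlapped. Without WT replicate 1, the difference was 0.09 in HoxC and -0.09 in HoxD, where single peaks decide the value. The sign in HoxB was negative, -0.13 and -0.04, with a minimum score of 100 and with equal numbers of top-scored peaks. A trend over WT, Tet2KO and DKO had an adjusted p = 0.778 in all 4 windows (exact permutation, 90 arrangements). The 15 ways to set 4 libraries against 2 cannot give a p below 0.0667, and 2 against 2 libraries cannot give one below 0.333.

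**Figure D4:**
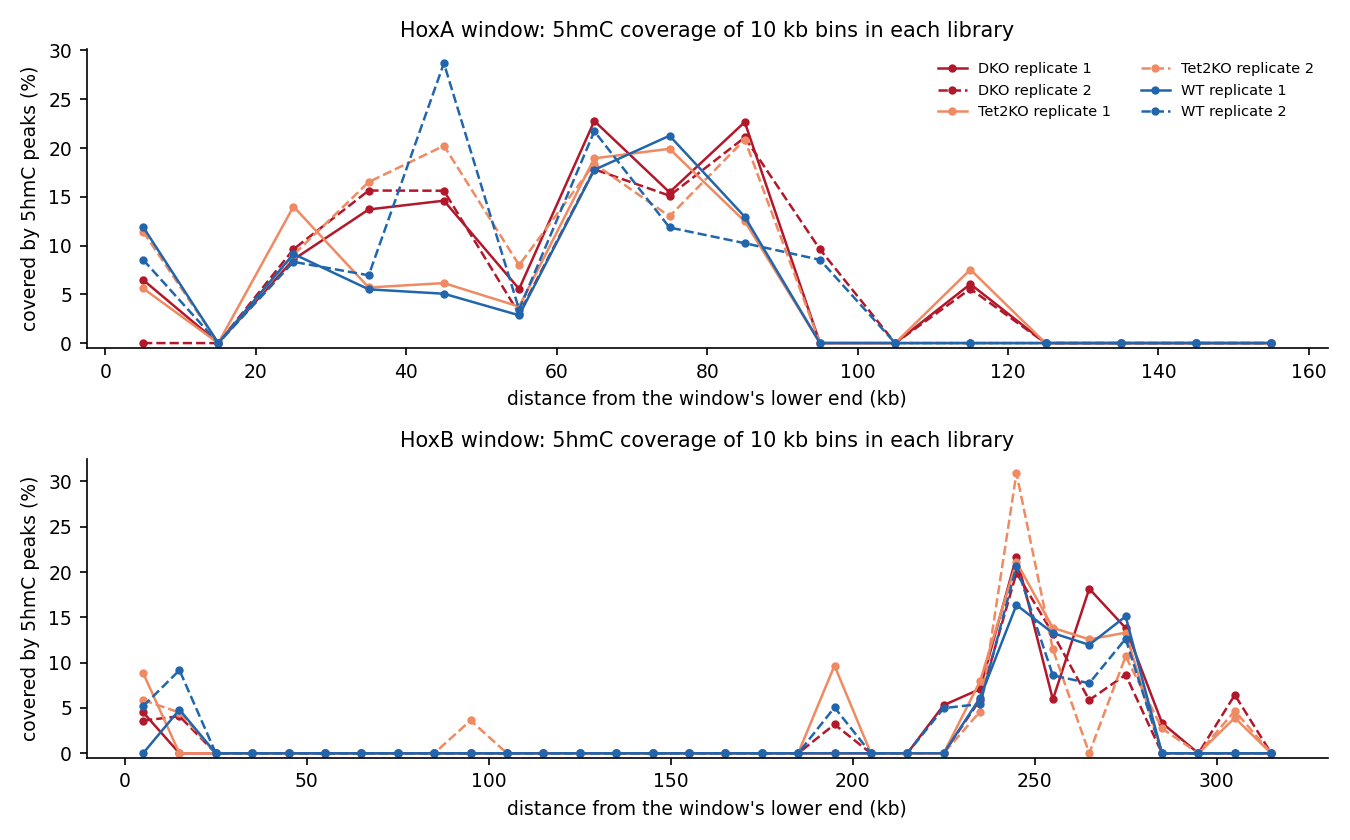
5hmC coverage in percent of each 10 kb bin of HoxA (top) and HoxB (bottom) against the distance in kb from the lower-coordinate end of the window, with 1 line per library. DKO, Tet2KO and WT lines cross along both windows. Both DKO lines lie above both WT lines at 30 to 40, 80 to 90 and 110 to 120 kb of HoxA. They lie below both WT lines at 0 to 10 kb of HoxA and 10 to 20 kb of HoxB.

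The same comparison was made bin by bin across the genome, by limma on the arcsine of the square root of the covered fraction. In DKO against WT, 0 of 74281 bins passed an adjusted p under 0.05 (0%). The count was also 0 in Tet2KO against WT (0%) and in DKO against Tet2KO (0%). The 21 Hox bins tested for 5hmC were 10 of HoxA and 11 of HoxB. No bin of HoxC or HoxD had a 5hmC peak in 2 or more libraries, so these clusters were not tested for 5hmC. None of the 21 Hox bins was called in any of the 3 contrasts. Of them, 1, 0 and 0 had an unadjusted p under 0.05 in limma, against 9.61%, 10.5% and 7.33% of all bins. For 5mC in DKO against WT, 0 of 90130 bins passed (0%), and 1 of 31 Hox bins had an unadjusted p under 0.05, against 6.8% of all bins. Of these 31 bins, 6 lay in HoxA, 21 in HoxB, 2 in HoxC and 2 in HoxD. The single Tet2KO library, assumed to vary like the others, gave 0 calls against WT (0%) and 0 for DKO against it (0%), with 1 of 31 Hox bins at an unadjusted p under 0.05 in each, against 6.19% and 6.04% of all bins. The Hox bins had median differences in 5hmC of 0.0093, 0.028 and -0.0051 on the arcsine scale in the 3 contrasts, against -0.0021, -0.014 and 0.012 over all bins. For 5mC the median was 0.0082, against -0.00036 over all bins.

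The Hox bin with the lowest p for 5hmC in DKO against WT was chr6:52160001-52170000 in HoxA. It was covered at 22.7% and 21.1% in DKO, against 12.9% and 10.2% in WT (limma, adjusted p = 0.488). The bin was picked by its p, so its separation of DKO from WT carries no weight. Both DKO libraries also lay above WT at chr6:52110001-52120000 and chr6:52190001-52200000, and below WT at chr6:52080001-52090000. In HoxB the bin with the lowest p was chr11:95940001-95950000, with DKO below WT. It was covered at 0% and 4.09% in DKO, against 4.82% and 9.17% in WT (limma, adjusted p = 0.799). For Tet2KO against WT it was chr6:52190001-52200000 in HoxA, covered at 7.54% and 0% in Tet2KO, against 0% in both WT libraries (limma, adjusted p = 0.726). In HoxB it was chr11:96230001-96240000, covered at 3.91% and 4.68% in Tet2KO, against 0% in both WT libraries (limma, adjusted p = 0.54). For 5mC in DKO against WT, the lowest p was at chr11:96070001-96080000 in HoxB, covered at 8.45% and 10.2% in DKO, against 6.14% and 4.09% in WT (limma, adjusted p = 0.661). The lowest bins of HoxA, HoxC and HoxD for 5mC were chr6:52110001-52120000, chr15:102840001-102850000 and chr2:74560001-74570000, with adjusted p of 0.886, 0.92 and 0.971 in limma.

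A region was counted as lost where both libraries of the genotype named second had a peak and neither library of the genotype named first had one, and as gained for the opposite. For 5hmC in DKO against WT, 2 of the 61 Hox regions were lost (3.28%, against 3.3% of all regions) and 3 were gained (4.92%, against 4.18%). In Tet2KO against WT, 0 were lost (against 3.27%) and 1 was gained (1.64%, against 3.42%). In DKO against Tet2KO, 0 were lost (against 2.21%) and 1 was gained (1.64%, against 2.81%). For 5mC in DKO against WT, 2 of 90 were lost (2.22%, against 2.37%) and 2 were gained (2.22%, against 2.53%). The counts are at most 3, and their shares are near those of all regions or below them. Leaving out 1 library loosens the rule and gave up to 11 regions of a kind.

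The 5hmC regions lost in DKO were chr6:52122262-52122968 in HoxA and chr11:95946164-95946731 in HoxB. The first lies inside the strong 5mC region chr6:52122105-52123057, and its peaks scored 60.5 in 1 Tet2KO library, against 88.7 and 56.8 in WT. The gained ones were chr6:52164024-52164748 and chr6:52195202-52196014 in HoxA and chr11:95939177-95939629 in HoxB, each also called in 1 Tet2KO library. Their scores in DKO were 52.8 and 82.3, 52.7 and 54.6, and 73.5 and 54.7, which 59.9% to 95.9% of the peaks of their lists reached. The region gained in Tet2KO was chr11:96176976-96177583, with scores of 125.1 and 66.8 in Tet2KO, and it was also called in 1 DKO library with 60.7. The region gained in DKO against Tet2KO, chr6:52124954-52125692, was also called in 1 WT library. The 5mC regions lost in DKO, chr11:96011286-96011556 and chr11:96110017-96110250, were also called in the Tet2KO library. Of the 5mC regions gained in DKO, chr6:52119410-52119659 was called in DKO alone, with scores of 58.4 and 68.3, and chr6:52159613-52159995 also in Tet2KO. No lost or gained region of either mark lay in HoxC or HoxD.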

How the data were processed

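The deposited files used were 11 peak lists, 1 per library, with a chromosome, start, end and a score for each peak as the authors deposited it. The lowest score over all lists of a mark was 50 for both marks, and no header names the scale of the score. The main analysis therefore used the score only to describe and rank peaks within a list. The alternative minimum of 100 treats all lists as being on a single scale. The peak caller MACS 1.4.2, the aligner Bowtie 0.12.9 and the build mm9 are listed in the submitters' processing notes, without a role. Whether a control library was used, how duplicates were treated and how deep the libraries are was not stated, and depth can change how many peaks are called and how wide they are. The other 17 of 28 samples, RNA-seq libraries, were not analysed here. Groups and replicate numbers follow the sample titles; the 5mC Tet2KO list has 2 in its title and 1 in its file name. Replicates may be technical, and p-values then measure only the spread between these samples.

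Positions count from 1. Coverage is the share of a window under the peaks of a library. Bins of 10 kb were kept where 2 or more libraries had a peak, and limma 3.58.1 (R 4.3.3) with a trend was run on the arcsine square root of their covered fraction, all libraries of an assay in 1 fit, with Benjamini-Hochberg adjustment. Single values were compared by exact permutation over libraries (Python 3.11.15, scipy 1.17.1). For log2 ratios, 0.1 percentage points were added, a value set after the files were seen. Alternatives were a score of at least 100, equal numbers of top-scored peaks, other merging gaps, bins, filters and scales, flanks, a replicate block and leaving out each library. The planned test of Hox promoters and gene bodies needs an mm9 annotation and was not run.

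Regions and bins named are, per window and mark, the widest constant region, every lost or gained region, the bin with the highest mean, the bin with the lowest p and the longest stretch free of 5hmC; others are said to be chosen after their values were seen. The members and lists were chosen with earlier results of these data known.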

Additional observations from a re-analysis of the deposited data

Results flagged for a closer look

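The single Tet2KO 5mC library had a peak in 4 of the 90 5mC regions of the Hox windows (4.44%) where neither WT library had one, 2 of them in HoxA, 1 in HoxB and 1 in HoxD, against 10.5% of regions over the genome. Of these 4, 2 were called in that library alone. The opposite, a peak in both WT libraries and none in Tet2KO, held for 1 region in HoxB (1.11%, against 5.09% over the genome). A single library has no replicate check, so neither count was tested.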

How the results depend on the processing

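Of 325 recomputed values, 247 kept their direction and side of the threshold, or a count within 1.5 times. Part of them could not cross the threshold, so this share is no measure of robustness. The exact tests of windows against the genome and of knockouts against WT cannot reach an adjusted p under 0.05. In limma no bin of the genome was called under any setting. The 5 differences between clusters kept their sign under every alternative run, and without 1 library each had an adjusted p of 0.075, which is set by the smaller number of libraries: HoxA minus HoxB was 4.04 to 4.41 percentage points, HoxA minus HoxC 6.33 to 6.79, HoxA minus HoxD 6.14 to 6.53, HoxB minus HoxC 2.28 to 2.43 and HoxB minus HoxD 2.10 to 2.31. With a minimum score of 100 no 5hmC peak is left in HoxC or HoxD, so that their knockout minus WT differences and HoxC minus HoxD became 0, and knockouts minus WT was -0.128 in HoxB. With equal numbers of top-scored peaks, knockouts minus WT was -0.00891 in HoxA and -0.0388 in HoxB; the cause was not tested.

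Without 1 library, knockouts minus WT ran from 0.113 to 1.48 in HoxA, 0.0262 to 0.395 in HoxB, -0.277 to 0.0889 in HoxC and -0.0912 to 0.314 in HoxD. Counts of regions moved most. With a minimum score of 100, the 5hmC counts of DKO against WT (2 lost, 3 gained), Tet2KO against WT (1 gained) and DKO against Tet2KO (1 gained) became 0, and 5mC in DKO against WT had 1 lost and 0 gained. With equal numbers of top-scored peaks, 5hmC had 1 gained in DKO against WT, 1 lost in Tet2KO against WT and 0 gained in DKO against Tet2KO. With regions joined across gaps of up to 500 bp, Tet2KO against WT had 0 gained and 5mC 1 gained. Without 1 library the rule needs fewer libraries: 5hmC in DKO against WT had 2 to 7 lost and 4 to 10 gained, Tet2KO against WT 1 to 8 lost and 2 to 11 gained, DKO against Tet2KO 1 to 9 lost and 2 to 5 gained, and 5mC in DKO against WT 4 to 10 lost and 3 to 10 gained.

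The replicate numbers did not pair the libraries: deviations of same-numbered libraries correlated at 0.036, 0.030 and 0.0074 for 5hmC and at -0.048 for 5mC, and with the replicate block limma called 0 bins in every contrast. Depth is unknown and limits all counts.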
